A study of Rattus norvegicus with 12 samples.

Results

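Long noncoding RNA (lncRNA) was compared between the lumbosacral spinal cord of rat fetuses with anorectal malformations (ARM) induced by ethylenethiourea (ETU) and that of normal fetuses. The libraries were chosen by the group given in their labels: 6 of the 12 samples of the series, 3 ARM and 3 normal, the other 6 being microRNA libraries. All fetuses were Wistar rats at embryonic day 19. The labels give neither the dose and day of ETU nor whether replicates came from separate animals, litters or pools, and a p-value here refers to the spread among these 6 libraries, which may be technical. No exposed sample without ARM was labelled, so the exposure and the malformation cannot be told apart. The normal columns could be matched to their group but not to single samples, and their replicate numbers are names only. The table lists 22591 transcripts, all of which were used.

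LncRNAs are transcripts with little or no coding potential. Many overlap the introns, ends or opposite strand of protein-coding genes, so that several transcripts of a table can draw on reads of a common piece of the genome. ETU lowers thyroid hormone synthesis and is a teratogen in rats, where it is used to model ARM, a failure of the hindgut to form a normal opening. The lumbosacral cord holds the motor neurons of the pelvic floor and sphincters and receives their sensory input. A transcript is named here by the gene symbol or locus name its table entry carries. A gene symbol names the locus and does not make the transcript that gene's messenger RNA. Names such as towaw or cheezey are pronounceable locus labels of the AceView catalogue with no meaning of their own.

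The libraries held 3285614 to 3721901 counts in ARM and 3428655 to 3865088 in normal cord, and the limit that 0 counts allow lay at 0.806 to 0.913 CPM (counts relative to the total of the library) for ARM and at 0.776 to 0.875 CPM for normal libraries (counting error only). Between 20991 and 21056 transcripts were detected in ARM libraries and between 20973 and 21005 in normal ones. Spearman correlations of log2 CPM across transcripts, which share depth and annotation, were 0.902 to 0.910 for pairs of ARM libraries, 0.896 to 0.903 for pairs of normal libraries and 0.892 to 0.907 between the groups. Within-group pairs were thus hardly more alike than pairs across groups. By leading log2 fold change distance normal replicate 1 lay 1.82 and 1.55 from the other normal libraries, which were 1.37 from each other. ARM replicate 1 likewise lay 1.62 and 1.44 from the other ARM libraries, which were 0.98 from each other. By Spearman correlation normal replicate 3 instead had the lower values within its group (0.896 and 0.897). The 5 most abundant transcripts took 8.34% to 9.23% of counts in ARM libraries and 7.46% to 7.99% in normal ones (exact two-sided permutation p = 0.1, beyond which 3 libraries a group cannot go, and 0.5 when adjusted over the 5 library measures). The other library measures had exact permutation p-values of 0.2 to 0.8.

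**Figure D1:**
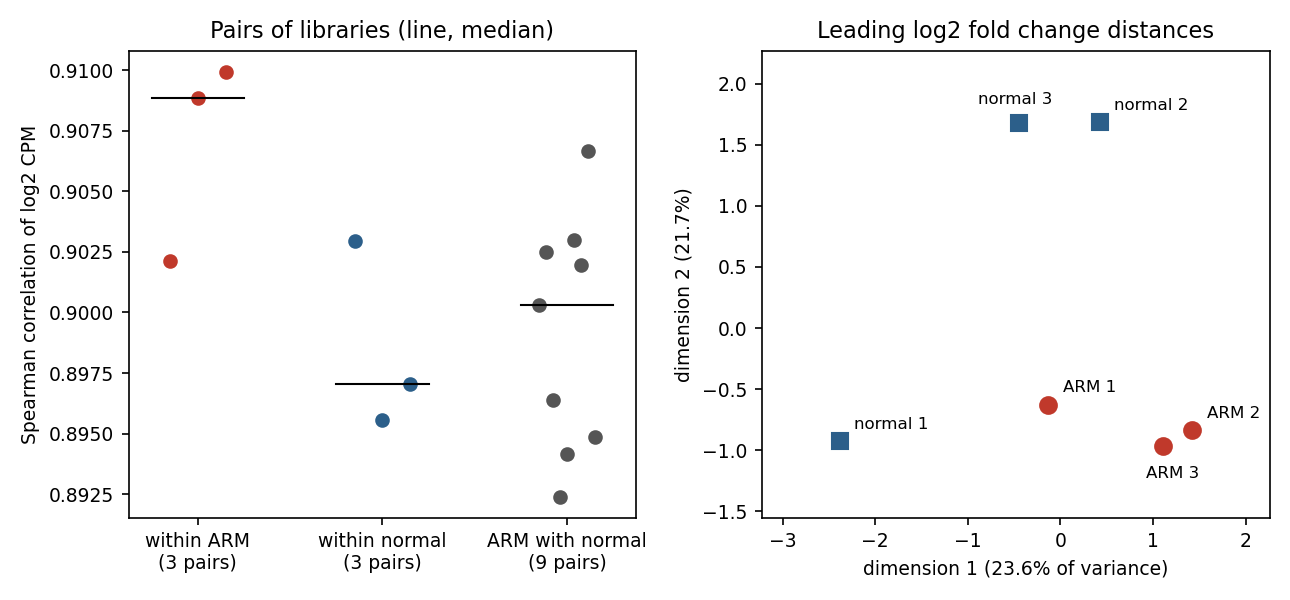
Left, Spearman correlation of log2 CPM for each pair of libraries (points; lines are medians) within ARM, within normal and between the groups. Right, a map of the libraries by leading log2 fold change distances, where dimension 1 holds 23.6% and dimension 2 holds 21.7% of the variance. The within-group pairs (0.896 to 0.910) overlap the between-group pairs (0.892 to 0.907). Normal 1 stands away from normal 2 and normal 3, and ARM 1, less far, from ARM 2 and ARM 3.

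Transcripts at a gene that marks neurons and at a Hox gene were present in both groups. The most abundant transcript at Rbfox3, the gene of the neuronal nuclear antigen NeuN, had 1116, 1447 and 1346 counts in ARM and 1172, 1157 and 1522 in normal libraries, and that at Hoxd9, a gene of the caudal Hox code, had 439, 462 and 420 in ARM and 391, 306 and 383 in normal libraries. Both were chosen after their values were seen. Transcripts at genes of other tissues were near 0 for some lists and abundant for others. The 2 at gut and renal epithelium genes summed to 0.301 to 1.40 CPM in ARM and 0.266 to 1.75 CPM in normal libraries, and the 10 at microglia and leukocyte genes to 7.27 to 9.49 CPM in ARM and 7.77 to 9.07 CPM in normal libraries. At blood genes 1 transcript was listed, with 1.32 to 2.41 CPM in ARM and 1.46 to 8.30 CPM in normal libraries. None of these 3 lists held a transcript abundant enough to be tested. The 15 at mesenchyme, meninges and cartilage genes summed to 696 to 981 CPM in ARM and 542 to 833 CPM in normal libraries. The 7 at skeletal muscle genes summed to 19.0 to 90.6 CPM in ARM and 22.3 to 124 CPM in normal libraries, and the 5 at endothelium and pericyte genes to 35.1 to 88.8 CPM in ARM and 32.2 to 94.0 CPM in normal libraries. On these 3 lists the groups overlapped, and the muscle and endothelium sums varied widely within each group. In bulk tissue a lower number of cells of one type and less RNA per cell cannot be told apart.

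Counts were compared first over loci, each a run of transcripts whose coordinates overlap, on either strand, with their counts summed. This made 18074 loci, of which 15395 hold 1 transcript and 2679 hold 2 or more, the largest 55. The test was edgeR's quasi-likelihood test with Benjamini-Hochberg adjustment over all 11207 loci tested and a threshold of 0.05. At this threshold 14 loci differed (0.125%), 7 higher (0.0625%) and 7 lower (0.0625%) in ARM. All 14 had ARM and normal libraries that did not overlap, which was also so for 12.2% of all tested loci (ARM above in 7.54% and below in 4.68%, or 9.66% and 3.21% when scaled by library totals). An unadjusted p under 0.05 was reached by 6.2%. The smallest called change was 1.77 on the log2 scale, and the median standard error (SE) of a log2 fold change was 0.25. Below, counts are raw counts per library in replicate order, levels are CPM as mean ± SD (n = 3 each), and fold changes are log2 values of ARM over normal. Coordinates are those of the table, which names no build.

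Among the higher loci the most abundant per length lies at Kif26b, the gene of a kinesin-like protein that acts in noncanonical Wnt signalling and cell adhesion. Its single transcript (NONRATT009033.2, chromosome 13, 96774894 to 96776106, with no intron) had 875, 925 and 991 counts in ARM and 246, 271 and 307 in normal libraries, or 213 to 217 CPM per kilobase of its length in ARM and 59.3 to 67.8 in normal libraries. Every ARM library was far above every normal one and the ARM libraries were close to each other. The summed level was 261.1 ± 2.37 CPM in ARM and 75.4 ± 5.92 CPM in normal cord (log2 fold change 1.77, SE 0.11, edgeR adjusted p 0.00391).

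The locus sharza (chromosome 4, 49387632 to 49388935) had 779, 1067 and 949 counts in ARM and 101, 141 and 179 in normal libraries. This made it as abundant as the Kif26b transcript in ARM by CPM, at 261.0 ± 33.3 CPM against 38.3 ± 9.23 CPM in normal cord (2.75, SE 0.20, edgeR adjusted p 0.00402). The locus cheezey (chromosome 4, 150568017 to 150568483) had 45, 46 and 45 counts in ARM and 2, 1 and 1 in normal libraries (4.97, SE 0.36, edgeR adjusted p 0.00391). It was near the floor in normal cord and nearly constant in ARM. Its nearest neighbours in the table that carry a symbol are at Ankrd26, 7.38 kb away, and at Cacna1c, the gene of a calcium channel subunit, 103 kb away. The Kif26b, sharza and cheezey loci kept their calls in each of the 6 fits that left out 1 library, with adjusted p up to 0.0140, 0.0250 and 0.0181.

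The remaining higher loci rested on fewer counts or on particular libraries. The locus veyshee (chromosome 2, 187884503 to 187886288), between transcripts at Lmna and Lamtor2, had 175, 155 and 224 counts in ARM and 49, 44 and 50 in normal libraries (1.95, SE 0.18, edgeR adjusted p 0.0141), with 0.0538 when normal replicate 1 was left out. The transcript NONRATT004731.2 (chromosome 10, 73963040 to 73989884), between transcripts at Vmp1 and Cltc, had 217, 61 and 183 counts in ARM and 3, 2 and 1 in normal libraries (6.19, SE 0.67, edgeR adjusted p 0.0299). It was high in ARM replicates 1 and 3 and lower in replicate 2, and its call was lost without ARM replicate 3 or any normal replicate (adjusted p up to 0.144).

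Both other higher loci had low counts. The locus chywer (chromosome 4, 594879 to 626742) had 28, 25 and 25 counts in ARM and 0, 1 and 0 in normal libraries, a ratio of summed counts, scaled by library size, of 79.7 with a 95% exact binomial interval of 13.9 to 3186 that covers counting error alone (edgeR adjusted p 0.0251). The locus koycher (chromosome 3, 63865842 to 63866549) had 14, 18 and 18 counts in ARM and 1, 2 and 2 in normal libraries (3.23, SE 0.39, edgeR adjusted p 0.0468). Neither was called once any of the 6 libraries was left out, with adjusted p up to 0.120 and 0.284.

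One of the lower loci joins the transcript at Ndrg3, a gene of the N-myc downstream-regulated family, with the overlapping transcript plochy (chromosome 3, 152972056 to 153019386). It had 308, 292 and 263 counts in ARM and 1155, 1233 and 1566 in normal libraries. The ARM libraries lay close together and well under the normal ones, at 81.2 ± 11.7 CPM in ARM and 362 ± 50.4 CPM in normal cord (-2.18, SE 0.16, edgeR adjusted p 0.00391). The locus towaw (chromosome 5, 157746099 to 157747108), with neighbours at Capzb and Akr7a2, had 6, 3 and 5 counts in ARM and 73, 104 and 105 in normal libraries (-4.28, SE 0.30, edgeR adjusted p 0.00391). Both were called in each of the 6 fits that left out 1 library, with adjusted p up to 0.0214 and 0.0163. They are, with Kif26b, sharza and cheezey, the 5 loci of the 14 for which this held.

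The locus named LOC680656 (chromosome 5, 173140300 to 173141564), whose nearest neighbour with a symbol is at Ssu72, 11.4 kb away, had 24, 50 and 22 counts in ARM and 332, 324 and 425 in normal libraries (-3.47, SE 0.33, edgeR adjusted p 0.0149). Without ARM replicate 1 or normal replicate 1 it was not called (adjusted p up to 0.0572). The locus of rorgar and stawgaw (chromosome 16, 11029459 to 11032803) had 25, 26 and 24 counts in ARM and 118, 127 and 81 in normal libraries (-2.11, SE 0.25, edgeR adjusted p 0.0427). It was called without normal replicate 3 and in none of the other 5 such fits (adjusted p up to 0.205). In both loci the highest ARM library lay under the lowest normal one.

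Another 3 loci were lower at the level of loci while none of their transcripts was called. The locus of NONRATT007306.2 and zalo (chromosome 12, 15967222 to 15971218) had 295, 339 and 363 counts in ARM and 878, 1171 and 1693 in normal libraries (-1.89, SE 0.21, edgeR adjusted p 0.0316), nearly all of them on NONRATT007306.2. As a transcript this had an edgeR adjusted p of 0.0527, so that the locus and the transcript fell on either side of the threshold with almost the same counts. The locus zylor (chromosome 12, 49558790 to 49561043) had 13, 7 and 10 counts in ARM and 45, 52 and 57 in normal libraries (-2.33, SE 0.29, edgeR adjusted p 0.0468). The locus sneewu (chromosome 5, 139076039 to 139077402) had 16, 18 and 28 counts in ARM and 75, 71 and 93 in normal libraries (-1.94, SE 0.24, edgeR adjusted p 0.0468). Each of these last 2 loci holds 1 transcript, with a transcript-level edgeR adjusted p of 0.0705. The zalo locus was lost without normal replicate 2 or any ARM replicate (adjusted p up to 0.202), and zylor and sneewu without any of the 6 libraries (up to 0.206 and 0.273).

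**Figure D2:**
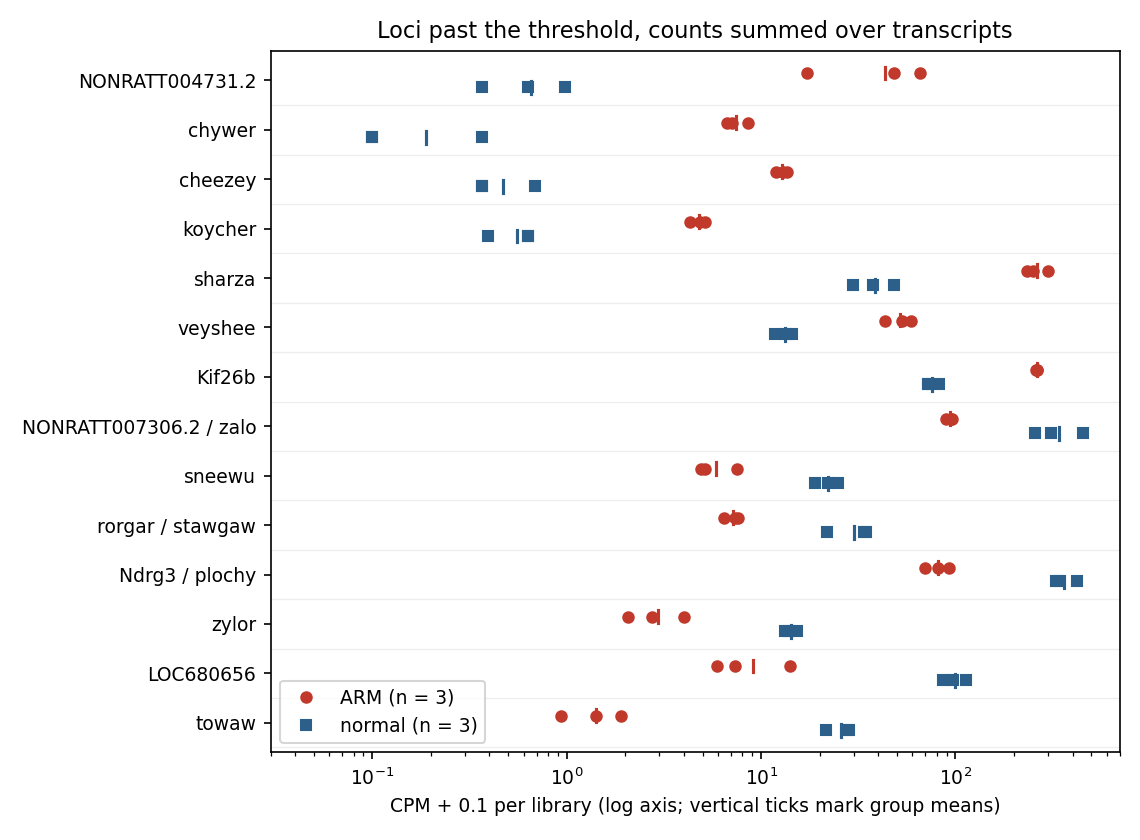
CPM plus 0.1 in each library (log axis; red circles ARM, blue squares normal, n = 3 each; vertical ticks mark group means) for the 14 loci past the threshold, ordered by log2 fold change. In every row the ARM and normal points do not overlap; the Kif26b ARM points nearly coincide, and those of NONRATT004731.2 spread most, with 61 to 217 counts.

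When each transcript was tested on its own, 16 of 13343 passed (0.12%), 9 higher (0.0675%) and 7 lower (0.0525%), lying in 15 loci. Of these transcripts 8 are alone in their locus, among 8891 such transcripts tested (0.09%), and 8 share it with others, among 4452 tested (0.18%). The median SE of a log2 fold change was 0.26 for lone transcripts and 0.29 for those in shared loci. Estimates beyond 1 on the log2 scale in either direction made up 2.80% of lone transcripts and 5.55% of transcripts in shared loci, whereas at the level of loci they made up 2.66%. Without ARM replicate 1, 29 transcripts were called, of which 10 were among the 16. Of the 16 transcripts 8 were called in each of the 6 fits that left out 1 library.

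For 11 of the 16 transcripts the summed locus was called in the same direction. For plochy, higher as a transcript, the summed locus was called lower. For the other 4 it was not called. One of these is at Nfe2l1, the gene of a transcription factor that raises proteasome production under stress. One transcript there (NONRATT005942.2, chromosome 10, 84682448 to 84688899) had 1, 1 and 1 counts in ARM and 174, 204 and 269 in normal libraries. The overlapping beenee had 213, 260 and 307 in ARM and 253, 242 and 293 in normal libraries, and NONRATT005941.2 had 42, 34 and 32 in ARM and 33, 30 and 27 in normal libraries. Only the first of these 3 differed past the threshold, and the summed locus, with 256, 295 and 340 counts in ARM and 460, 476 and 589 in normal libraries, had a lower estimate and did not pass (-0.77, SE 0.13, edgeR adjusted p 0.296).

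At Pou4f1, the gene of a transcription factor of sensory neurons and of dorsal spinal neurons, the called transcript (NONRATT011163.2, chromosome 15, 88619129 to 88620802) had 163, 216 and 184 counts in ARM and 11, 5 and 18 in normal libraries. Its partner NONRATT011162.2, which held most counts of the locus in both groups, had 1511, 1766 and 1811 in ARM and 1301, 1749 and 1935 in normal libraries. The locus total did not separate the groups (0.18, SE 0.14, edgeR adjusted p 0.849). Of the 22 genes on the sensory ganglion and Schwann cell list, which contains Pou4f1, 8 were found. Without Pou4f1 the 10 transcripts at the other 7 summed to 55.1 to 68.8 CPM in ARM and 65.3 to 82.6 CPM in normal libraries, while both Pou4f1 transcripts made up 504 to 554 CPM in ARM and 384 to 523 CPM in normal libraries. Of the 5 transcripts tested on this list 3 had higher estimates, and both at Pou4f1 were among these 3. That at Scn9a, a sodium channel gene of sensory neurons, lay lower, with 63, 61 and 87 counts in ARM and 125, 125 and 110 in normal libraries (-0.75, SE 0.18), and was not called. The part of ganglion cells in the Pou4f1 value was not tested. The transcript call was lost without normal replicate 1 or any ARM replicate (edgeR adjusted p up to 0.112).

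Both called transcripts with MSTRG identifiers, the form that a transcript assembler gives, were at 0 in ARM beside a partner that was not. MSTRG.5726.1 (chromosome 11, 76006104 to 76024404) had 0 counts in every ARM library and 1845, 2634 and 1061 in normal libraries, whereas MSTRG.5726.2, of nearly equal span, had 1599, 1256 and 1714 in ARM and 336, 136 and 587 in normal libraries. MSTRG.9548.1 (chromosome 16, 16161557 to 16178440) had 0 in every ARM library and 839, 1164 and 762 in normal libraries, whereas MSTRG.9548.2 had 822, 588 and 850 in ARM and 376, 265 and 0 in normal libraries. In each pair the reads lay on one transcript in ARM and on both in most normal libraries. The summed loci did not pass (-0.53, SE 0.21, edgeR adjusted p 0.791, and -0.59, SE 0.26, edgeR adjusted p 0.794). The transcript call of MSTRG.5726.1 was lost without normal replicate 1 (edgeR adjusted p 0.0871).

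**Figure D3:**
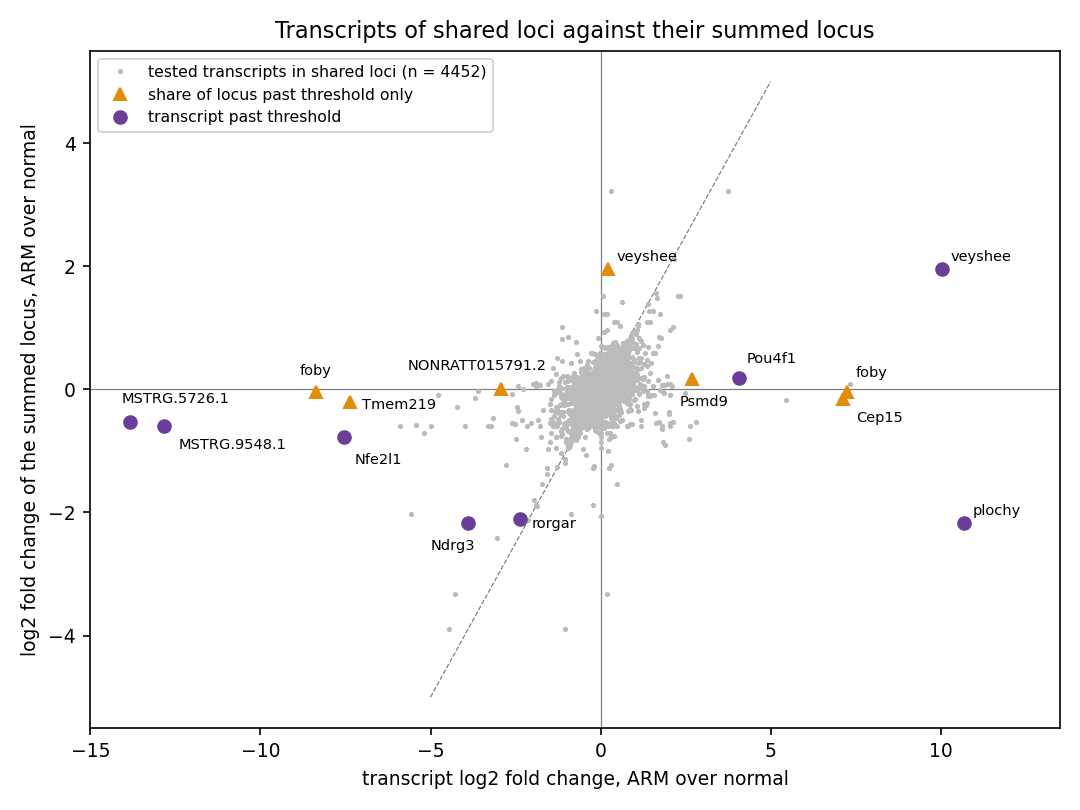
Log2 fold change (ARM over normal) of each of 4452 tested transcripts that share a locus (horizontal) against that of its summed locus (vertical); the dashed line marks equal values. Purple circles passed as transcripts and orange triangles passed only in their share of the locus. Most marked points lie far out horizontally with a locus value near 0, among them Pou4f1 (locus 0.18), Nfe2l1 (locus -0.77) and the MSTRG pair (locus -0.53 and -0.59), while plochy and Ndrg3 lie on opposite sides of 0 at one locus value of -2.18.

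The share of a locus taken by each of its transcripts was then tested in loci with 2 or more tested transcripts, using edgeR's test of differential usage with Simes p-values per locus. Of 1391 such loci 10 passed (0.719%), with 24 (1.73%) at an unadjusted Simes p under 0.05. Of the 10 loci 2 were also called by their summed counts and 5 hold a called transcript. Within them 12 of 3680 tested transcripts passed (0.326%), 6 with a higher and 6 with a lower share in ARM. For 7 of these 12 transcripts all libraries of one group were at 0. Without ARM replicate 1, normal replicate 1 or normal replicate 2 the number of loci was 21, 18 and 16.

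At Nfe2l1 the share of NONRATT005942.2 was 0.391%, 0.339% and 0.294% of the locus in ARM and 37.8%, 42.9% and 45.7% in normal libraries (edgeR locus adjusted p 5.1e-09). At Pou4f1 the share of NONRATT011163.2 was 9.74%, 10.9% and 9.22% in ARM and 0.838%, 0.285% and 0.922% in normal libraries (edgeR locus adjusted p 0.000207). Unlike its level, its share kept the call in each fit that left out 1 library (adjusted p of the locus up to 0.0040). At the Ndrg3 locus plochy (NONRATT018820.2) had 207, 204 and 197 counts in ARM and 0 in each normal library, and the Ndrg3 transcript NONRATT018818.2 had 101, 88 and 66 in ARM and 1155, 1233 and 1566 in normal libraries. Plochy thus took 67.2%, 69.9% and 74.9% of a smaller locus total in ARM and none in normal libraries (edgeR locus adjusted p 8.5e-07).

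At veyshee the longer transcript NONRATT016571.2 had 117, 117 and 156 counts in ARM and 0 in each normal library, a level at least 133-fold higher than 3 counts in the normal group would give. The shorter NONRATT016570.2, which lies within its span, had 58, 38 and 68 in ARM and 49, 44 and 50 in normal libraries (0.22, SE 0.25). The rise of this locus therefore lay on one of its 2 transcripts. The share of the longer one was 66.9%, 75.5% and 69.6% in ARM (edgeR locus adjusted p 0.000144). The MSTRG.5726 pair passed as well (edgeR locus adjusted p 0.000376), whereas the MSTRG.9548 pair did not.

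The other 5 loci have no transcript past the threshold by level. The locus foby on the X chromosome (10657282 to 10660401) held 258, 243 and 273 counts in ARM and 268, 254 and 276 in normal libraries, so its total was even (-0.04, SE 0.12). Within it NONRATT030866.2 had 0 counts in every ARM library and 36, 35 and 54 in normal libraries, while NONRATT030868.2 had 18, 19 and 19 in ARM and 0 in every normal library. Each of these 2 transcripts thus had counts in one group alone, while both others of the locus, NONRATT030867.2 and NONRATT030865.2, were at 0.17 (SE 0.14) and 0.04 (SE 0.16) (edgeR locus adjusted p 2.0e-08 for usage).

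At Cep15, the gene of a centrosomal protein, NONRATT010765.2 had 17, 14 and 21 counts in ARM and 0 in every normal library (edgeR locus adjusted p 0.000207 for usage). At Tmem219, which encodes a membrane receptor, NONRATT003181.2 had 0 counts in every ARM library and 22, 19 and 21 in normal libraries (edgeR locus adjusted p 0.000498 for usage). Their summed loci were at -0.15 (SE 0.19) and -0.21 (SE 0.21). Both transcripts were thus all or none between the groups at a low level in loci whose totals did not pass. In the Cep15 locus, which holds 8 transcripts, the overlapping NONRATT010766.2 was lower in ARM. It had 5, 0 and 4 counts in ARM and 39, 49 and 10 in normal libraries, and was not among the transcripts tested.

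At Ube2d3, the gene of a ubiquitin-conjugating enzyme, NONRATT015791.2 had 4, 3 and 7 counts in ARM and 18, 68 and 26 in normal libraries, in a locus of 9 transcripts with 2859, 3138 and 3301 counts in ARM and 3057, 3092 and 3107 in normal libraries. The transcript was at most 2.20% of the locus. This call (edgeR locus adjusted p 0.000498 for usage) was lost without normal replicate 2, the library with the highest count (0.151). At Psmd9, the gene of a chaperone of proteasome assembly, NONRATT007974.2 had 33, 20 and 24 counts in ARM and 5, 5 and 2 in normal libraries (edgeR locus adjusted p 0.00713 for usage). It was lost without ARM replicate 1 or 2 or normal replicate 1 or 3 (up to 0.607). The other 8 loci kept their calls in all 6 such fits.

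**Figure D4:**
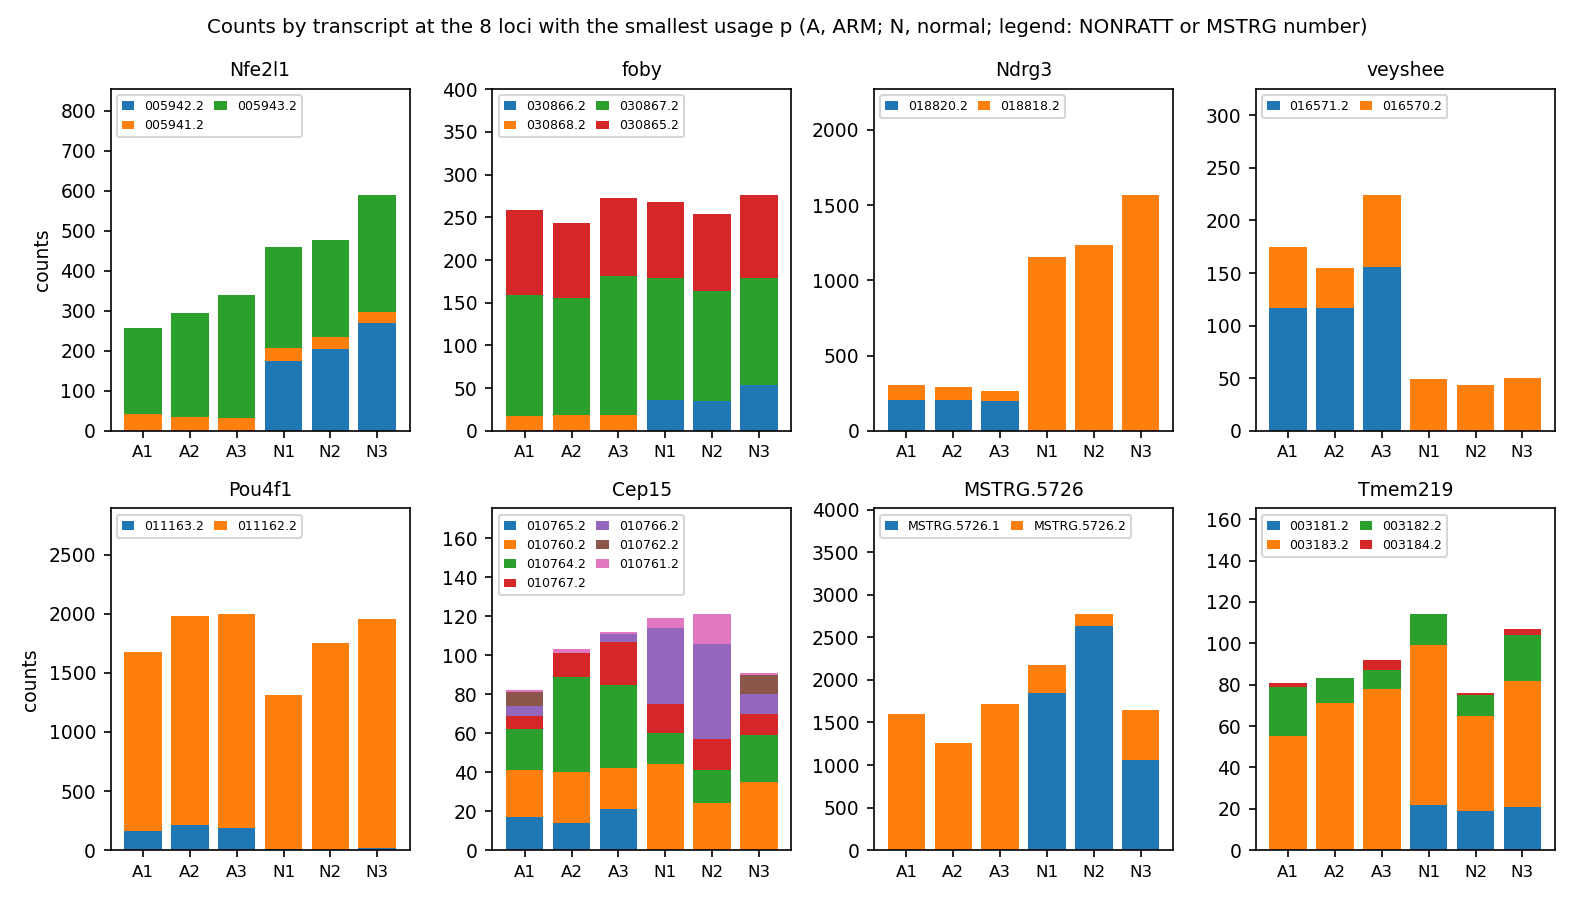
Counts per library (vertical axis) of the transcripts at the 8 loci with the smallest usage p, stacked by transcript (colours), with the ARM libraries (A1 to A3) left of the normal ones (N1 to N3). The totals are even at foby and Pou4f1. The transcript drawn in blue has at most 1 count in each library of one group at every locus shown except Pou4f1, where it has 5 to 18 counts in normal libraries.

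All-or-none patterns were looked at over the whole table. With 0 counts in every library of one group and at least 10 in each library of the other, 4 transcripts had counts in ARM alone (plochy, the longer veyshee transcript and those at foby and Cep15) and 4 in normal cord alone (MSTRG.5726.1, MSTRG.9548.1 and those at foby and Tmem219). All 8 lie in loci with 2 or more transcripts, which hold 7196 of the 22591 transcripts. None of the 15395 lone transcripts met the rule. Zeros in single libraries showed the same imbalance. Where the other 2 libraries of a group had at least 50 counts each, the remaining library was at 0 in 87 of 11910 cases (0.730%) in shared loci and in 14 of 24978 cases (0.0560%) in loci with 1 transcript. How the authors divided reads among overlapping transcripts is not given in the sources used here, and its part in the all-or-none values was not tested.

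Gene lists were drawn up for the cell types and pathways of the tissue, and each is described by its tested transcripts against all 13343, of which 51.5% had a higher estimate in ARM (median 0.01). Of the lists' members only those at Kif26b and Pou4f1 (higher) and Nfe2l1 (lower) were called. The 7 tested axon guidance transcripts all had higher estimates (median 0.32, range 0.06 to 0.59, with a median of 0.17 without ARM replicate 1 and 0.21 without normal replicate 2), yet none passed and for none were the groups separate. The most abundant, at Robo3, a guidance receptor of commissural axons, had 87, 52 and 68 counts in ARM and 46, 41 and 70 in normal libraries (0.44, SE 0.30). The 4 tested transcripts at Hox genes likewise had higher estimates (median 0.35), with that at Hoxb8 at 983, 1258 and 1029 in ARM and 738, 922 and 1116 in normal libraries (0.27, SE 0.17). For 1 of the 4 Hox transcripts ARM lay above normal in every library, as for 992 of all 13343. None of these 11 transcripts had an unadjusted p under 0.05. Summed over loci, 1 of 4 at Hox genes had such a p and none of 7 at axon guidance genes did, where 6.2% of all tested loci did. In 1 of the 4 Hox loci ARM lay above normal in every library, as in 7.54% of all tested loci.

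Of 37 pan-neuronal transcripts 28 had higher estimates (median 0.20), and 9 had an unadjusted p under 0.05, where 5.98% of all transcripts did. This list counts 9 transcripts of Meg3, the maternally expressed imprinted lncRNA, which form part of 1 locus. Of the 9 transcripts with such a p, 5 were at Meg3, and 1, at Syn1, was lower (-0.37, SE 0.15). Summed over loci, 18 of 25 had higher estimates (median 0.11), where 48.5% of all tested loci did. Of these 25 loci 2 had an unadjusted p under 0.05, where 6.2% of all tested loci did. The transcript at Miat, a neural lncRNA of nuclear bodies, had 17818, 19851 and 21036 counts in ARM and 14691, 16944 and 16038 in normal libraries (0.33, SE 0.08, edgeR adjusted p 0.832). Its groups did not overlap, as in 12% of all tested transcripts, and it did not pass. The neural progenitor and astrocyte list had 5 of 15 higher (median -0.09, but 0.11 without normal replicate 1), and its most abundant transcript, at the glial transcription factor gene Nfib, had 1092, 1243 and 842 counts in ARM and 608, 626 and 1431 in normal libraries (0.30, SE 0.35).

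For the thyroid hormone pathway, which ETU acts on, 7 of 13 tested transcripts had higher estimates (median 0.02, and 0.05 to 0.25 when 1 library was left out) and none passed. The transcript at Thra, the gene of thyroid hormone receptor alpha, had 144, 153 and 170 counts in ARM and 118, 126 and 135 in normal libraries, or 43.7 ± 1.05 CPM in ARM and 34.7 ± 1.36 CPM in normal cord (0.33, SE 0.12, edgeR adjusted p 0.832). Its groups did not overlap, as in 12% of all tested transcripts. The spinal patterning list had 9 of 15 higher (median 0.06), and the motor and cholinergic neuron list 5 of 8 (median 0.04), with the transcript at Etv4 at 53.4 ± 0.755 CPM in ARM and 50.6 ± 3.80 CPM in normal cord. In the Wnt list 4 of 7 were higher (median 0.08) and Kif26b alone was called, as it was among 24 motor protein and cytoskeleton transcripts (16 higher, median 0.09). The stress and proteasome list, which holds Nfe2l1, had 12 of 22 higher (median 0.04). Summed over loci, 6 of 14 on this list were higher (median -0.14), where 48.5% of all tested loci were.

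Of the remaining lists most were small. Retinoic acid signalling had 4 of 6 higher, with the transcript at Pbx3 at 65.4 ± 16.8 CPM in ARM and 38.8 ± 9.05 CPM in normal cord (0.75, SE 0.25). The hedgehog, BMP and FGF list had 4 of 5 higher (Sufu 0.06, SE 0.18), apoptosis 4 of 5 (Bad 0.07, SE 0.15), mesenchyme 7 of 10 (Col5a1 0.17, SE 0.21) and oligodendrocytes 1 of 2. The imprinted list had 12 of 14 higher (median 0.33), with 5 at an unadjusted p under 0.05 and 7 with ARM above normal in every library. It shares the 9 Meg3 transcripts with the pan-neuronal list, and these supply all 5 and all 7. Of all 13343 tested transcripts 798 (5.98%) had such a p and 992 had ARM above normal in every library. Summed over loci 4 of 5 on the imprinted list were higher and none had such a p. The abundant and nuclear lncRNA list, which holds Miat, had 8 of 11 higher (median 0.09). In some transcripts the libraries of each group differed widely. That at Abcc9, a pericyte gene, had 191, 180 and 10 counts in ARM and 5, 217 and 215 in normal libraries, and that at Mef2c, a muscle and neuronal transcription factor gene, had 42, 318 and 92 in ARM and 386, 79 and 460 in normal libraries.

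**Figure D5:**
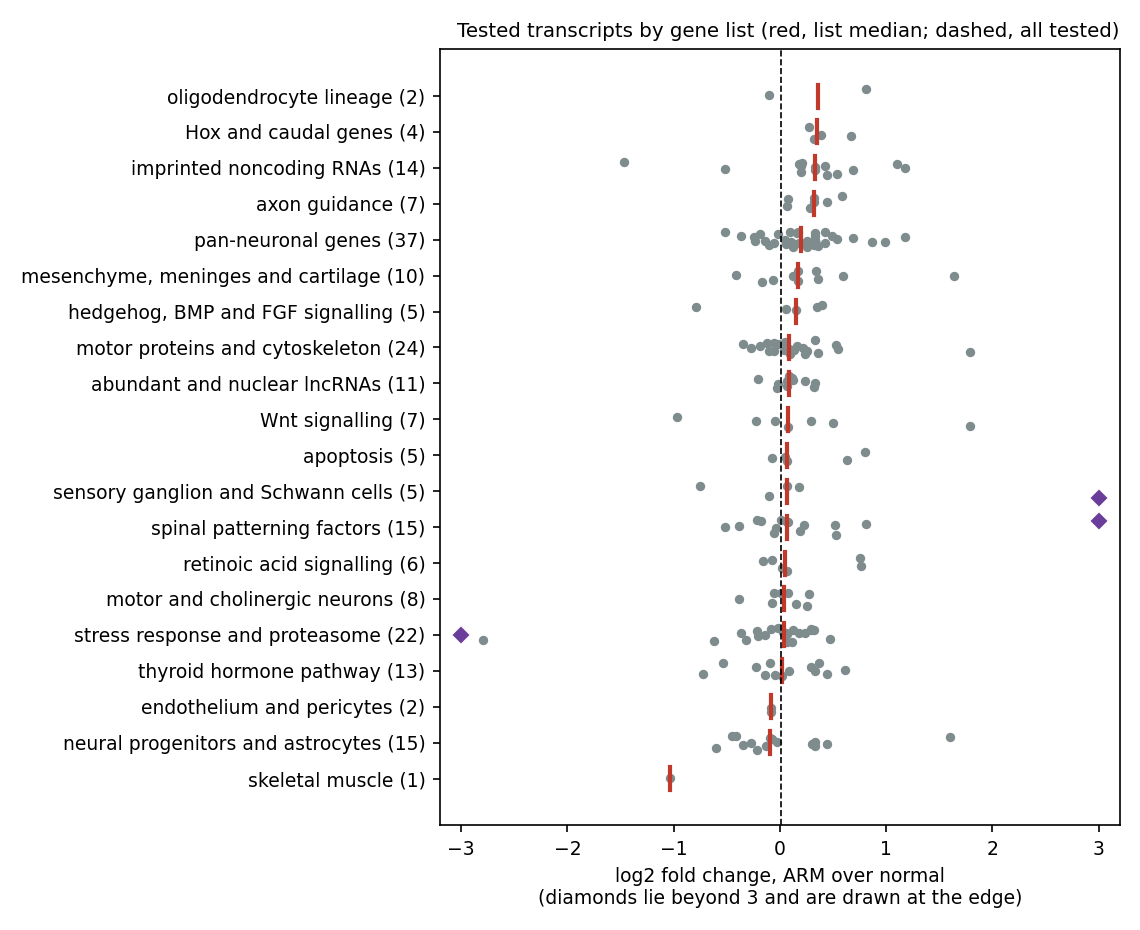
Log2 fold change (ARM over normal) of every tested transcript in each list (points; the number tested is in brackets), with the list median in red and the median of all tested transcripts dashed. Diamonds are called transcripts beyond 3 drawn at the edge (Pou4f1 on 2 lists at 4.06, Nfe2l1 at -7.55); the list medians with 4 or more members lie between -0.09 and 0.35.

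The most abundant transcripts were not called. The 5 are ranked by mean CPM over all 6 libraries. MSTRG.113.4, first in this order and also per length, was at 20948 ± 3889 CPM in ARM and 20619 ± 5085 CPM in normal cord (0.02, SE 0.21). The neighbouring stawflu and gokla on chromosome 1 were at 22324 ± 1269 and 17513 ± 869 CPM in ARM and at 19189 ± 1811 and 14144 ± 1133 CPM in normal cord (0.22, SE 0.10, and 0.31, SE 0.10). The most abundant Meg3 transcript and byvu, of the locus that holds Meg3, were at 15047 ± 803 and 9633 ± 572 CPM in ARM and at 12992 ± 1562 and 8473 ± 922 CPM in normal cord (0.21, SE 0.11, and 0.18, SE 0.11). In these 5 the edgeR adjusted p was 0.832 to 0.994.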

How the data were processed

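The deposited table gives whole-number read counts per transcript for 6 lncRNA libraries, with coordinates and lengths, per the file headers. The 6 FPKM columns beside them were not used. Per the submitters' processing notes, which give no role or order, the tools were Cuffdiff, Cufflinks 2.1.1, TopHat2 2.0.9 and CASAVA 1.8, with the mouse build mm10, although the identifiers belong to rat. Not given in the sources used here are the coordinates' build, the counting tool, any strand setting and the rule for reads shared by overlapping transcripts. Without strand, reads of a gene and its antisense partner cannot be told apart.

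Symbols were found for 8251 of 22591 transcripts by their AceView, RefSeq or Ensembl names in RefSeq's gene table (GRCr8), used for names alone. Loci join transcripts overlapping by at least 1 base. Counts were tested in R 4.3.3 with edgeR 4.0.16 (TMM scaling, default filter with a minimum count of 10, quasi-likelihood test, usage by diffSpliceDGE), with phenotype as the one term and adjusted p under 0.05 as threshold. CPM are scaled by TMM, and CPM per kilobase divides them by the deposited length. The SE is the log2 fold change over the root of the F statistic. Folds against a group at 0 use a floor of 3 counts over the group. Alternatives used DESeq2 1.42.0 and limma 3.58.1 (voom and diffSplice). Scripts were tested on simulated data.

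The comparison, the loci, the 23 gene lists and the tests were chosen with earlier results of these data known. Named were all called transcripts with their overlapping partners, the called loci up to 12 in each direction, the usage loci with the smallest p, the called or otherwise most abundant member of each list and the 5 most abundant transcripts. One list member that the rule names is not reported here. The usage loci at Ube2d3 and Psmd9, Hoxd9 and Rbfox3 were added after their values were seen.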

Additional observations from a re-analysis of the deposited data

How the results depend on the processing

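Which loci were called depended on the tool and the filter. DESeq2 called 76 transcripts (15 of the 16) and 41 loci (13 of the 14). With no filter on low counts edgeR called 9 transcripts and 5 loci, and with a mean of at least 10 CPM 8 transcripts and 6 loci, fits that test more or fewer features. Limma-voom called 9 loci. The causes were not tested. Leaving out 1 library gave 19 to 29 transcripts, 11 to 18 loci and 13 to 21 usage loci. The difference in detected transcripts, ARM minus normal, was 40.7 as deposited and 154 with counts thinned to the smallest total (exact permutation p = 0.2 and 0.3). Under the settings not named in this paragraph the counts of called features stayed within 1.5 times, whereas DESeq2 and other fits above went beyond this. No called transcript, locus or usage result reversed. Without 1 library the library measures moved by less than 1 SD but often by over 1.5 times: the ARM minus normal difference in the percent of counts on MSTRG transcripts was -1.56 to -5.18 (-2.92 with all libraries), in total count -78660 to -324551 (-189892), in detected transcripts 25.3 to 57.8 (40.7) and in the percent of counts in shared loci -0.34 to 0.83 (0.43). Of 20 gene lists the median kept its sign in all 6 such fits for 12 and not for 8 (Wnt, retinoic acid, apoptosis, stress, progenitor, mesenchyme, endothelium and sensory ganglion). No paired analysis was possible because the normal columns could be matched to their group only and carry no sample number. Loci restricted to one strand were not run, as the table gives no strand, nor was limma on the deposited FPKM, whose columns were not used.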

Other observations

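The transcripts that follow lie outside the naming rule and were picked after their values were seen. Those at Gnas, Rbfox1 and Foxp1 varied more between libraries of one group than between the groups. That at Gnas, an imprinted locus, had 245, 2 and 312 counts in ARM and 2, 269 and 2 in normal libraries. One at the neuronal splicing factor gene Rbfox1 had 1385, 1558 and 6150 in ARM and 1334, 1519 and 1666 in normal libraries. At Foxp1, a motor column transcription factor gene, 2 transcripts were each at or near 0 in other libraries. NONRATT021671.2 had 2, 59 and 47 counts in ARM and 58, 3 and 44 in normal libraries, and NONRATT021672.2 had 44, 3 and 1 in ARM and 0, 28 and 26 in normal libraries. NONRATT009546.2 lies at Xbp1, a gene of the unfolded protein response. It had 12, 13 and 39 counts in ARM and 133, 125 and 189 in normal libraries (-2.79, edgeR adjusted p 0.227). Its groups did not overlap, as in 12% of all tested transcripts. The overlapping NONRATT009545.2 had 52, 67 and 75 counts in ARM and 61, 53 and 43 in normal libraries (0.32, SE 0.22). NONRATT014570.2 lies at Nfix, a glial and neuronal transcription factor gene. It had 213, 112 and 188 counts in ARM and 34, 87 and 54 in normal libraries (1.60, SE 0.38). Its groups did not overlap either, and it did not pass over all transcripts.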
